A study of Mus musculus with 4 samples.

Results

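Guidance genes encode the semaphorins, ephrins, Slits and netrins, which are secreted or membrane-bound cues, and the plexins, neuropilins, Eph receptors, Robo receptors and Unc5 receptors that read them. They were chosen by gene symbol alone, 1 probe set per gene, and 67 of the 18193 genes with a single annotated symbol on the array belonged to these 9 families. The families held 20 semaphorins, 9 plexins, 2 neuropilins, 8 ephrins, 13 Eph receptors, 3 Slits, 4 Robo receptors, 4 netrins and 4 Unc5 receptors. Ephb2 was not analysed here.

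The tissue was semilunar valve leaflets, the cusps of the aortic and pulmonary valves, dissected from newborn mice. The 2 Cxcr7-/- pools were from neonates without Cxcr7 (Ackr3), an atypical receptor that takes up the chemokine CXCL12, and the 2 Control pools were from wildtype littermates. Each pool held the leaflets of 3 neonates and was measured on 1 Affymetrix array after 2 rounds of amplification from 50 ng of RNA. Neither strain nor sex of the neonates is in the labels, and the RNA is of whole leaflets, so fewer cells of a type and less RNA per cell cannot be told apart. Ackr3 read 28.3 and 328 in Cxcr7-/- leaflets, against 4936 and 5698 in Control leaflets, so it was lower in both pools labelled as lacking it. All 15 listed valve interstitial and fibroblast markers and all 20 endothelial markers were above the filter on dim signals, but so were all 23 cardiomyocyte markers.

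Semaphorins signal through plexins, and most secreted class 3 members need a neuropilin as coreceptor. Ephrins bind Eph receptor tyrosine kinases on neighbouring cells, and the ephrin side can signal as well. Slits bind Robo receptors, and netrins bind Dcc, neogenin and Unc5 receptors. All were described as guides of axons, and several also pattern vessels and the cardiac outflow tract, where semaphorin 3C steers neural crest cells and ephrin-B2 and EphB4 mark arterial and venous endothelium.

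Of the 67 genes, 49 had a probe set above the filter, which kept the brighter part of all probe sets, and 18 were too dim to be tested. Of the 49, 24 had positive and 25 negative log2 fold changes (Cxcr7-/- minus Control, on signals with 22 added), where 50.4% of all 11260 genes above the filter were positive and 49.6% negative. Their median log2 fold change was -0.0002, against 0.005 over those genes. None had an adjusted p under 0.05 in limma (the share over all genes was 0.0%, and the smallest adjusted p among the 49 was 0.406), so fold changes below are values with their errors and not called changes. At an unadjusted p under 0.05, 1 gene was higher (2.04% of the 49, against 3.95% of all genes), namely Sema3a, and 3 were lower (6.12%, against 4.09%), namely Ntn4, Robo4 and Efnb2. Centring each array on its median raises the contrast of all probe sets by 0.14. The counts of the 49 were then 3 higher and 2 lower, as Efnb2 no longer passed. Over all 22518 probe sets kept, that scaling gave 1421 higher and 809 lower. Both Cxcr7-/- pools lay above both Control pools for 10 genes (20.4%, against 21.1% of all genes) and below both for 14 (28.6%, against 19.1%).

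**Figure D1:**
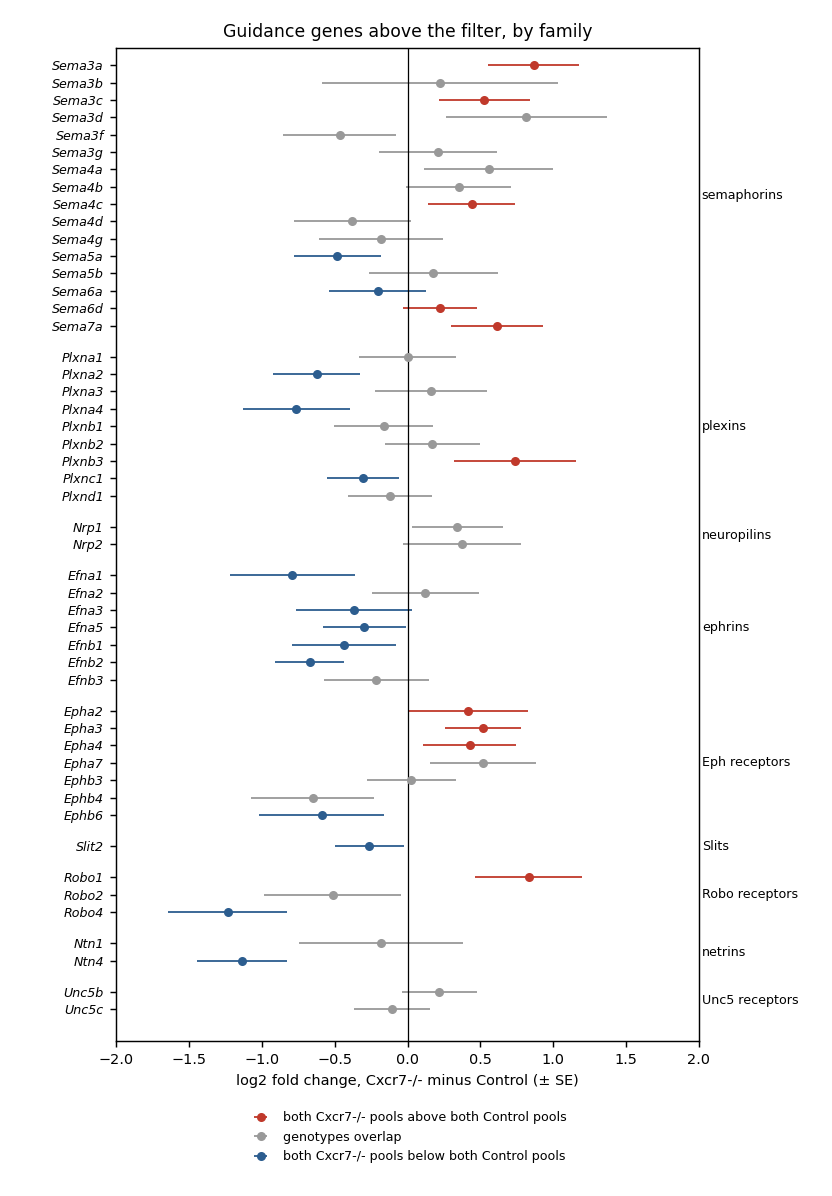
Log2 fold change (Cxcr7-/- minus Control, horizontal axis) with its standard error for the 49 guidance genes above the filter, grouped by family, from 2 pools per genotype. Red points are genes with both Cxcr7-/- pools above both Control pools, blue points the opposite, and grey points genes whose genotypes overlap. Of the 7 ephrins 5 are blue (against 19.1% of all genes). Of the 7 Eph receptors 3 are red (against 21.1%) and 1 is blue. The 3 red ones are among the 4 EphA receptors, a group split off after the values were seen.

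Ntn4 had the smallest unadjusted p of the 49 genes. It encodes netrin 4, a laminin-related secreted protein of basement membranes. It read 2470 and 3534 in Cxcr7-/- leaflets, against 5158 and 8281 in Control leaflets. Both Cxcr7-/- pools were below both Control pools, and Control replicate 2 was the highest. This is -1.14 ± 0.31 on the log2 scale (SE, 2 pools per genotype; limma unadjusted p = 0.00618, adjusted p = 0.406). It was -1.48 without Control replicate 1 and -0.80 without Control replicate 2.

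Robo4, a Robo family receptor of endothelial cells, read 59.3 and 57.6 in Cxcr7-/- leaflets, against 136 and 205 in Control leaflets. The genotypes did not overlap. The log2 fold change was -1.24 ± 0.41 (limma adjusted p = 0.441), and the signal is dim enough for the added 22 to lower it. Efnb2, which encodes the transmembrane ligand ephrin-B2, read 4329 and 3984 in Cxcr7-/- leaflets, against 7527 and 5854 in Control leaflets. Both Cxcr7-/- pools were again below both Control pools, at a log2 fold change of -0.67 ± 0.24 (limma adjusted p = 0.450), and its other probe set above the filter was at -0.41 ± 0.27.

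The promoters of these 3 genes are shown from RefSeq (GRCm38.p6, 250 bases before to 50 after the start, each on its gene's strand). The genes were picked as those lower at an unadjusted p under 0.05 in limma, and no link between promoters and signals was tested. Capitals mark matches on either strand to GGGCGG, the GC box, and to TATAAA, the TATA box.
Ntn4, chr10:93640799-93641098, plus strand: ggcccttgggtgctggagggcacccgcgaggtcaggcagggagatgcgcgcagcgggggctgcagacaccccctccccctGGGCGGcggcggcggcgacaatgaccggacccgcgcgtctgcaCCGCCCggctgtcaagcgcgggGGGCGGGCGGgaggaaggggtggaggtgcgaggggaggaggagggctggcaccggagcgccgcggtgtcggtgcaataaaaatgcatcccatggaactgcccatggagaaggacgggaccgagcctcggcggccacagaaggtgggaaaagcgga
Efnb2, chr8:8661193-8661492, minus strand: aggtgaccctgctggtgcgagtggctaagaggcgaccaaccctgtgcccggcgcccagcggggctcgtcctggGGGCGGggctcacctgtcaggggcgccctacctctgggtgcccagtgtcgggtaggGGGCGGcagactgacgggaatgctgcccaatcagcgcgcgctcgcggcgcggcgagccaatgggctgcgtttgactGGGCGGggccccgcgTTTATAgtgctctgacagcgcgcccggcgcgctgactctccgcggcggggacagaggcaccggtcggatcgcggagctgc
Robo4, chr9:37401722-37402021, plus strand: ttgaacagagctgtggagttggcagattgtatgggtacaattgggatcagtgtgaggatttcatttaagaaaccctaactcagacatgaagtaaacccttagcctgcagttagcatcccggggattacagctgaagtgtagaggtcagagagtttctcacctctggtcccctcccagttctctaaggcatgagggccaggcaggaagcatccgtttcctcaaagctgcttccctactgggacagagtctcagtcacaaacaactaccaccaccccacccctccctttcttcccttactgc
The Ntn4 window held 4 GC box matches, of which a pair overlap each other, at a GC content of 72.0%. The Efnb2 window held 3 and 1 TATA box match at 72.3%. The Robo4 window held neither at 50.3%, against a median of 52.7% over all 32851 promoter windows. The letters GGGCGG are in 35.7% of those windows and TATAAA in 13.6%. An ETS motif (CCGGAAG, in 8.86% of windows) and an E-box (CACGTG, in 7.15%) matched in none of the 3.

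Sema3a was the guidance gene higher in Cxcr7-/- leaflets at an unadjusted p under 0.05. It encodes semaphorin 3A, a secreted repellent of sensory and sympathetic axons that also acts on endothelial cells. It read 863 and 1067 in Cxcr7-/- leaflets, against 428 and 623 in Control leaflets. The genotypes did not overlap, and the log2 fold change was 0.87 ± 0.31 (limma unadjusted p = 0.0243, adjusted p = 0.453). Its other probe set above the filter read 244 and 301 in Cxcr7-/- leaflets, against 47.2 and 82.3 in Control leaflets, which is a log2 fold change of 1.79 ± 0.40.

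**Figure D2:**
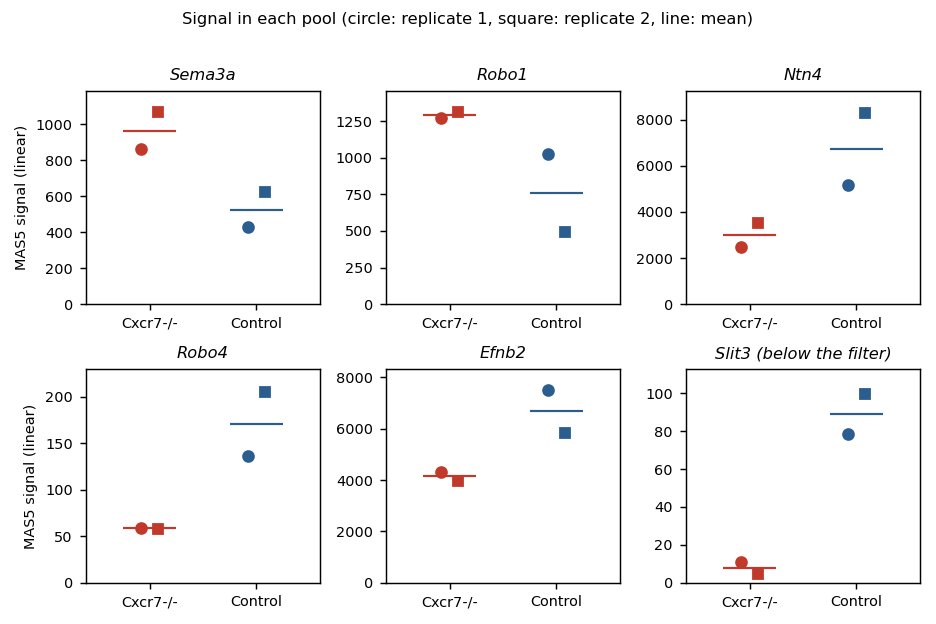
MAS5 signal (vertical axes, linear, each starting at 0) of 6 guidance genes in each pool, Cxcr7-/- on the left and Control on the right; circles are replicate 1, squares replicate 2 and lines the mean of 2 pools. The 6 shown all come from the genes whose genotypes do not overlap, so the absence of overlap here is not a result. Of the 49 genes above the filter, 25 overlap. Over all genes 21.1% lie above both Control pools and 19.1% below both. Slit3 is below the filter. Control replicate 2 is far from Control replicate 1 for Robo1 and Ntn4.

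Among the semaphorins, 11 of the 16 above the filter were positive (against 50.4% of all genes) and 5 negative, with a median of 0.22. Of the 16, 5 were above both Control pools (against 21.1% of all genes) and 2 below both (against 19.1%). The median was 0.12 without Cxcr7-/- replicate 2 and 0.37 without Cxcr7-/- replicate 1. The secreted class 3 members had a median of 0.37 (6 genes, 5 positive), which was 0.18 with 4 positive without Cxcr7-/- replicate 2 and 0.56 to 0.59 without any other single pool. Sema3c, the outflow tract cue, read 566 and 809 in Cxcr7-/- leaflets, against 500 and 431 in Control leaflets (0.52 ± 0.31). Sema3d read 119 and 434 in Cxcr7-/- leaflets, against 135 and 110 in Control leaflets, so its 0.82 ± 0.56 rested on Cxcr7-/- replicate 2 and was -0.03 without it. Sema3f, which acts mainly through neuropilin 2, read 921 and 816 in Cxcr7-/- leaflets, against 805 and 1804 in Control leaflets. The genotypes overlapped for Sema3f, which was at -0.47 ± 0.39, and at 0.10 without Control replicate 2. Sema3g overlapped as well, with 147 and 180 in Cxcr7-/- leaflets and 182 and 103 in Control leaflets, and its 0.21 was -0.14 without Control replicate 2. Sema3e, which binds plexin D1 directly, was below the filter, with 43.5 and 28.2 in Cxcr7-/- leaflets and 76.6 and 1.65 in Control leaflets.

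The membrane-bound semaphorins were mixed. The 5 class 4 genes had a median of 0.35, which dropped to 0.04 when Control replicate 1 was left out. Leaving out a Cxcr7-/- pool gave 0.15 (replicate 2) or 0.55 (replicate 1). Among them Sema4c, whose receptors are B plexins, read 1151 and 1651 in Cxcr7-/- leaflets, against 1144 and 894 in Control leaflets. Sema5a was lower, with 709 and 661 in Cxcr7-/- leaflets and 798 and 1168 in Control leaflets (-0.48 ± 0.30), but its other probe set above the filter was at 0.11 ± 0.35. Sema6d, known from chick heart for roles in ventricular and endocardial growth, read 2012 and 1708 in Cxcr7-/- leaflets, against 1683 and 1494 in Control leaflets (0.22 ± 0.25). Sema7a, the member anchored to the membrane by a lipid, read 479 and 604 in Cxcr7-/- leaflets, against 387 and 304 in Control leaflets (0.62 ± 0.32). The genotypes did not overlap for either of these.

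The plexins, the main semaphorin receptors, had a median of -0.12, with 3 positive and 6 negative of 9. Their direction depended on the setting, since the median was 0.01 with each array centred on its median and 0.10 without Control replicate 2. Plxna2, a receptor with a role in outflow tract septation, read 411 and 514 in Cxcr7-/- leaflets, against 793 and 653 in Control leaflets (-0.62 ± 0.30). Its other 3 probe sets above the filter were negative too, at -0.49, -0.43 and -0.36. Plxna4, a receptor for class 3 and class 6 semaphorins, read 131 and 126 in Cxcr7-/- leaflets, against 281 and 194 in Control leaflets (-0.77 ± 0.37). Plxnc1, the receptor of semaphorin 7A, read 1744 and 2020 in Cxcr7-/- leaflets, against 2478 and 2180 in Control leaflets (-0.31 ± 0.25). These 3 of the 9 plexins were below both Control pools in both Cxcr7-/- pools, against 19.1% of all genes. Plxnb3 lay on the other side, with 132 and 212 in Cxcr7-/- leaflets and 111 and 75.6 in Control leaflets (0.74 ± 0.42). It was the 1 plexin above both Control pools, against 21.1% of all genes.

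Other plexins and both neuropilins overlapped between genotypes. Plxnd1, the endothelial plexin required for outflow tract septation, read 941 and 844 in Cxcr7-/- leaflets, against 828 and 1143 in Control leaflets (-0.12 ± 0.29). Plxnb2 read 1502 and 868 in Cxcr7-/- leaflets and 1042 and 985 in Control leaflets, and Plxna1 read 235 and 276 in Cxcr7-/- leaflets and 228 and 284 in Control leaflets. Nrp1, the coreceptor that also binds VEGF, read 10906 and 10779 in Cxcr7-/- leaflets, against 11836 and 6184 in Control leaflets. Its log2 fold change of 0.34 ± 0.31 rested on the low Control replicate 2 and was -0.13 without it. Nrp2 read 285 and 195 in Cxcr7-/- leaflets, against 131 and 237 in Control leaflets (0.37 ± 0.41).

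Ephrins had mostly negative and EphA receptors positive log2 fold changes. Of the 7 ephrins above the filter, 6 had negative log2 fold changes (against 49.6% of all genes), with a median of -0.37. Both Cxcr7-/- pools were below both Control pools for 5 ephrins (against 19.1% of all genes). All 4 EphA receptors above the filter were positive (against 50.4% of all genes), with a median of 0.47. Of these receptors, 3 were above both Control pools (against 21.1% of all genes). Split this way the groups were formed after the values were seen, so no test was made. Taken per pool as the median deviation of a gene from its own mean over the 4 pools, the ephrins were at -0.21 and -0.23 in Cxcr7-/- leaflets, against 0.19 and 0.16 in Control leaflets. The EphA receptors were at 0.25 and 0.17 in the Cxcr7-/- pools, against -0.10 and -0.37 in the Control pools. No ephrin or Eph receptor had an adjusted p under 0.05 in limma (against 0.0% of all genes). At an unadjusted p under 0.05, 1 ephrin was lower and 0 Eph receptors were, against 4.09% of all genes. None of either family was higher, against 3.95%.

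**Figure D3:**
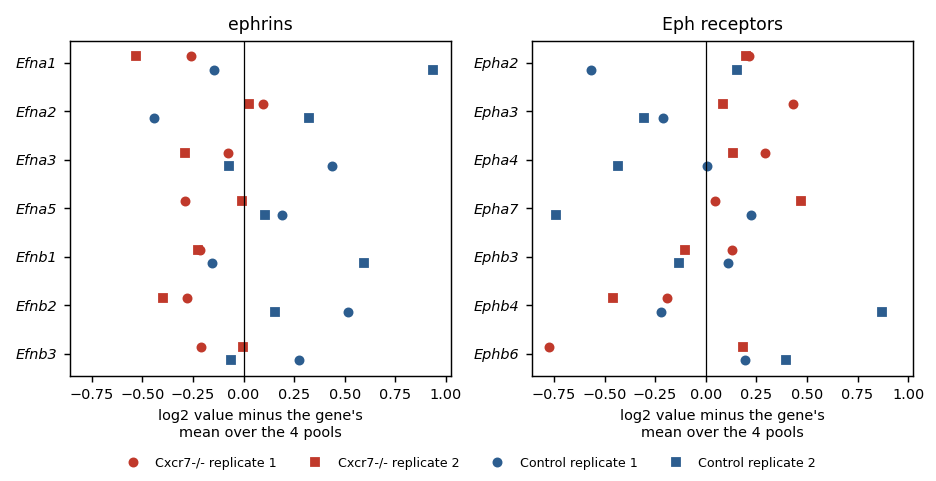
Log2 signal of each ephrin (left) and Eph receptor (right) above the filter in each pool, minus the gene's mean over the 4 pools (horizontal axes), with Cxcr7-/- pools in red above the Control pools in blue. The Cxcr7-/- points of 6 ephrins sit at or left of 0, and Control replicate 2 (blue square) is far right for Efna1, Efnb1 and Ephb4 and far left for Epha7.

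Among the GPI-anchored ephrin-A ligands, Efna1, an angiogenic ligand of EphA2, read 201 and 162 in Cxcr7-/- leaflets, against 219 and 489 in Control leaflets. Its -0.79 ± 0.43 leaned on Control replicate 2 and was -0.25 without it. Efna5 read 563 and 689 in Cxcr7-/- leaflets, against 795 and 747 in Control leaflets (-0.30 ± 0.28), and Efna3 was at -0.37 ± 0.40. Efna2 was the exception among the ephrins, at 0.12 ± 0.36 with overlapping genotypes. Of the transmembrane ephrin-B ligands besides Efnb2, Efnb1 read 308 and 306 in Cxcr7-/- leaflets, against 322 and 557 in Control leaflets (-0.44 ± 0.36). Efnb1 was at -0.06 without Control replicate 2, and its 2 other probe sets above the filter were at -0.48 and -0.04. Efnb3 was at -0.21 ± 0.36 and overlapped.

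Epha3, a receptor expressed in endocardial cushions with a role in mouse atrioventricular valve and septum formation, read 2114 and 1659 in Cxcr7-/- leaflets, against 1344 and 1258 in Control leaflets (0.52 ± 0.26). Both Cxcr7-/- pools were above both Control pools, and the other probe set above the filter was at 0.36 ± 0.33. Epha4, a receptor that binds ephrins of both classes, read 486 and 434 in Cxcr7-/- leaflets, against 396 and 286 in Control leaflets (0.43 ± 0.32). Epha7 read 1589 and 2143 in Cxcr7-/- leaflets, against 1802 and 911 in Control leaflets, so its genotypes overlapped, and its 0.52 ± 0.36 was 0.03 without Control replicate 2. Epha2 read 156 and 154 in Cxcr7-/- leaflets, against 81.4 and 149 in Control leaflets (0.41 ± 0.41), and was at 0.05 without Control replicate 1. Epha4 was at 0.20 without Control replicate 2, so for 3 of the 4 receptors the size depended on a single Control pool. The 7 other probe sets of EphA receptors above the filter were positive, and so were the 4 genes under every alternative setting that kept them. These probe sets share the same pools and are not independent.

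The EphB receptors did not follow the EphA receptors. Ephb4, the venous partner of ephrin-B2, read 240 and 196 in Cxcr7-/- leaflets, against 235 and 526 in Control leaflets. Its genotypes overlapped, and its -0.65 ± 0.42 was -0.11 without Control replicate 2. Ephb6, a family member without kinase activity, read 87.7 and 191 in Cxcr7-/- leaflets, against 193 and 225 in Control leaflets (-0.59 ± 0.43). Ephb3 was at 0.03 ± 0.31. Over all 7 Eph receptors above the filter the median was 0.41, with 5 positive and 2 negative.

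In the Slit and Robo family, 1 of the 3 ligands was above the filter, and the receptors diverged. Slit1 was below the filter and its genotypes overlapped. Slit2, a repellent ligand of Robo receptors, read 2553 and 2377 in Cxcr7-/- leaflets, against 3132 and 2799 in Control leaflets (-0.26 ± 0.24). Slit3, a related ligand, was below the filter with 10.9 and 4.48 in Cxcr7-/- leaflets, against 78.7 and 99.5 in Control leaflets. The genotypes did not overlap for Slit2 or Slit3. In a fit with no filter Slit3 was at -1.91 ± 0.50 (limma adjusted p = 0.626), a size that depends on the added 22. Robo1, the broadly expressed Slit receptor, read 1268 and 1309 in Cxcr7-/- leaflets, against 1026 and 495 in Control leaflets (0.83 ± 0.37, limma adjusted p = 0.501). Robo1 was at 1.34 without Control replicate 1 and at 0.32 without Control replicate 2. Robo2 read 80.3 and 72.9 in Cxcr7-/- leaflets, against 178 and 77.2 in Control leaflets, with Control replicate 1 alone high and the genotypes overlapping.

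None of the other netrins and netrin receptors above the filter had an unadjusted p under 0.05. Ntn1, the founding axon attractant, was dim and overlapped, with 63.0 and 104 in Cxcr7-/- leaflets and 49.2 and 172 in Control leaflets. Unc5b, an endothelial netrin receptor that also binds Robo4, read 3593 and 2762 in Cxcr7-/- leaflets, against 2462 and 2985 in Control leaflets (0.22 ± 0.26). Unc5c was at -0.11 ± 0.26, with its other probe set above the filter at 0.60 ± 0.30. Neogenin (Neo1), another netrin receptor, was at -0.20 ± 0.21, and Dcc was below the filter.

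Of the 50 listed partner and downstream genes on the array, such as Slit-Robo GTPase activators and collapsin response mediators, 42 were above the filter. Among these 17 were positive and 25 negative, with a median of -0.09, and none had an adjusted p under 0.05 in limma. At an unadjusted p under 0.05, 0 were higher and 1 was lower, against 3.95% and 4.09% of all genes. The 1 gene was Mical3, a relative of the plexin-associated oxidoreductase, with 96.7 and 66.4 in Cxcr7-/- leaflets, against 206 and 161 in Control leaflets (-1.00 ± 0.40). Limk1, a kinase that acts on cofilin, was at 0.98 ± 0.44 and Rac1, a GTPase downstream of plexins, at 0.45 ± 0.21.

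Control replicate 2 stood apart for more of these genes than any other pool. Its signal was at least 1.5-fold above each of the other 3 pools for 8 of the 49 genes (16.3%, against 5.28% of all genes) and as far below them for 3 (6.12%, against 7.03% of all genes). The 8 were Sema3b, Sema3f, Sema4d, Efna1, Efnb1, Ephb4, Ntn1 and Ntn4, and the 3 were Nrp1, Epha7 and Robo1. The median absolute log2 difference was 0.46 between the Control pools and 0.27 between the Cxcr7-/- pools, against 0.38 between genotype means. Over all genes these values were 0.38, 0.26 and 0.27. A mean of 2 pools varies less than a single pool, so the last value of each set is not measured like the others.

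Some lists of cell type markers and the cell cycle genes differed in level between the genotypes too. No listed gene had an adjusted p under 0.05 in limma. Valve interstitial and fibroblast markers were mixed, with 7 positive and 8 negative and a median of -0.03. Melanocyte markers were mixed as well, with 4 positive and 4 negative and a median of 0.01. Endothelial markers were negative for 13 of 20, with a median of -0.11. Their summed signals were 40180 to 43173 in Cxcr7-/- leaflets and 46582 to 58173 in Control leaflets. Cardiomyocyte markers were negative for 23 of 23 (115413 to 165510 in Cxcr7-/- leaflets, 203467 to 292433 in Control leaflets), and lung epithelial markers for 8 of 9 (1882 to 2900 in Cxcr7-/- leaflets, 5240 to 10481 in Control leaflets). Neuronal and Schwann cell markers were positive for 7 of 10, with a median of 0.26. Their summed signals were 3090 to 3609 in Cxcr7-/- leaflets and 2281 to 2620 in Control leaflets. Macrophage markers were positive for 19 of 19 (31775 to 37275 in Cxcr7-/- leaflets, 19074 to 24875 in Control leaflets). Smooth muscle markers were negative for 8 of 10, with a median of -0.66 (21914 to 26201 in Cxcr7-/- leaflets, 31246 to 38675 in Control leaflets). Cell cycle genes were positive for 26 of 29, with a median of 0.70. Their summed signals were 78624 to 80640 in Cxcr7-/- leaflets and 52903 to 57836 in Control leaflets. Of the cell cycle genes, 15 were higher at an unadjusted p under 0.05 in limma, against 3.95% of all genes. The part of these cell types and of cell cycle genes in the guidance gene values was not tested.

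**Figure D4:**
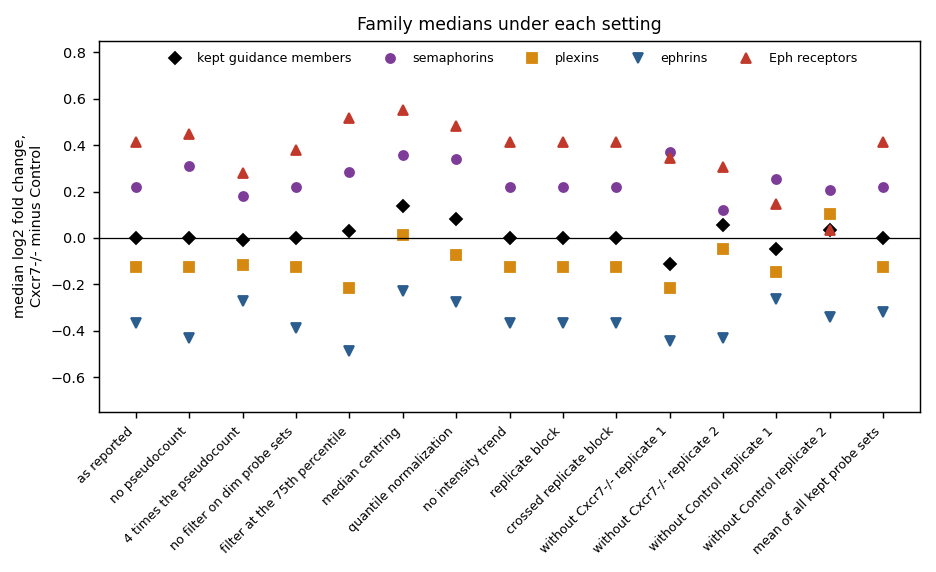
Median log2 fold change (Cxcr7-/- minus Control, vertical axis) of the 49 guidance genes and of the 4 families with at least 5 genes above the filter, under the reported setting and each alternative (horizontal axis). The ephrin median stays below 0 (-0.49 to -0.23) and the semaphorin and Eph receptor medians above 0 in the settings plotted, while the plexin median crosses 0.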

How the data were processed

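Per the labels, total RNA of leaflet pools was amplified in 2 rounds and hybridised to 1 array per pool. The deposited table gives 1 linear intensity per probe set and array, made with MAS5 in Affymetrix Expression Console per the submitters' processing notes, with no version or detection call. On every array the middle 96% of probe sets averaged 500.003, so the scale is that of MAS5 scaling to 500, and dim probe sets carry large relative errors. Of 45101 probe sets, 64 controls were set aside. Signals were taken as log2(signal + 22), where 22 is the rounded 25th percentile of the rest. Probe sets with a mean above the median (22518) were kept. Genes came from a platform annotation table (34945 probe sets with 1 symbol, 932 with several, named nowhere here), with the highest-mean probe set per gene. Genotypes were compared over all kept probe sets with limma 3.58.1 in R 4.3.3 (lmFit, eBayes with intensity trend, two-sided, Benjamini-Hochberg), and the procedure was tested on simulated data. The number of arrays limits the precision, since 2 pools per genotype left 2 residual degrees of freedom, and an exact permutation test of 2 against 2 cannot go below p = 0.333. The labels call the pools biological replicates. Genes below the filter were fitted with no filter.

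Genes named with every pool's value were those past an unadjusted p of 0.05 with genotypes that do not overlap, the gene with the highest mean per family, and a list of genes with known roles in outflow tract or vessel formation; Sema4c, Sema5a, Sema7a, Plxnb3, Efna5, Ephb6, Robo3, Ntn3 and the partner gene Ntng2 were added after their values were seen. The members and lists were chosen with earlier results of these data known. The labels tie no replicate numbers across genotypes, so pools were compared unpaired. Alternatives changed the pseudocount (none, 88), the filter (none, 75th percentile), the normalization (median centring, quantile), the trend, the replicate block, the probe set and the arrays used.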

Additional observations from a re-analysis of the deposited data

How the results depend on the processing

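Over 14 alternatives, no guidance gene had an adjusted p under 0.05 except without Control replicate 1, where Robo1 and Ntn4 did; leaving out 1 pool gave 0 to 2 such genes, and over all probe sets 0 to 673. At an unadjusted p under 0.05, leaving out 1 pool gave 0 to 4 higher genes, against 1 with all pools, and 0 to 9 lower genes, against 3. The lowest lower count was without Cxcr7-/- replicate 1, followed by 1 without Cxcr7-/- replicate 2, and the highest was without Control replicate 1. Counts over all probe sets were also highest without Control replicate 1, in both directions. Each fit with 1 pool left out has a single pool in 1 genotype, so its counts are not read as a result about guidance genes. Median centring gave 3 higher and 2 lower genes, against 1421 and 809 of all 22518 probe sets. The mean of all kept probe sets of a gene gave 2 and 2, against 514 and 486 of all 11260 genes. The replicate block gave 1 higher and 3 lower genes, the same counts as the unpaired fit, against 640 and 1090 of all probe sets. It changed no adjusted call. Same-numbered pools deviated in opposite directions (r = -0.30 across genes, which are not independent). A block with crossed numbers, chosen after seeing the data, gave 2 higher and 3 lower genes, against 1260 and 1903 of all probe sets. The plexin median ran from -0.22 to 0.10 with 1 pool left out, the highest without Control replicate 2. The Eph receptor median ran from 0.034 (without Control replicate 2) to 0.35 with 1 pool left out (0.15 without Control replicate 1), and was 0.28 with the pseudocount of 88 and 0.55 with median centring. The semaphorin median ran from 0.12 to 0.37 with 1 pool left out, the lowest without Cxcr7-/- replicate 2. Why any value moved was not tested. Dim signals limit Robo4, Ntn1, Robo2 and the 18 genes below the filter, and 2 pools per genotype limit all.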

Other observations

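Genes below the filter are given as values. Both Cxcr7-/- pools were below both Control pools for 5 of these 18 genes (Efna4, Slit3, Robo3, Ntn3 and Unc5a) and above them for 2 (Epha10 and Epha6). The share over all genes below the filter is not given here. Robo3, a divergent Robo receptor, read 49.1 and 52.5 in Cxcr7-/- leaflets, against 190 and 76.5 in Control leaflets. Ntn3 read 2.06 and 1.82 in Cxcr7-/- leaflets, against 9.89 and 56.1 in Control leaflets. Among the partner genes below the filter, the membrane-anchored netrin G2 gene Ntng2 read 9.81 and 11.9 in Cxcr7-/- leaflets, against 55.9 and 96.9 in Control leaflets.

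Probe sets of 1 gene did not always point the same way. Of 28 further probe sets above the filter, which belong to 16 of the guidance genes, 23 had the sign of the probe set reported. The widest disagreement named here was in Nrp1, where a dimmer probe set read 263 and 621 in Cxcr7-/- leaflets, against 2181 and 483 in Control leaflets, which is a log2 fold change of -1.30 ± 0.67 beside 0.34 ± 0.31. That value came from Control replicate 1 alone being high.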
